A study of Mus musculus with 38 samples.

Results

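Interleukins and their receptors were examined as a group of 80 protein-coding mouse genes, of 22367 on chromosomes 1 to 19, X and Y. The group holds every gene of the GENCODE vM1 annotation (build mm9) whose symbol is Il followed by a digit, except Il4, Il5, Il13, Il2ra and Il7r. By role it contains 37 ligands, 40 receptor chains, 2 binding antagonists and 1 enzyme. Each gene was given a window of its body plus 20 kb on either side. The 80 windows covered 7.46 Mb, and 23 of them shared bases with the window of another interleukin gene, so that 1 peak can count for several genes there.

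The study asked where the chromatin organizer SATB1 sits in the genome when chromatin is purified through urea before immunoprecipitation, compared with standard ChIP-seq, and in which cell types. Of 38 samples in the series, the 11 with a peak list were used here. All in vivo lists came from wild-type C57BL/6 mice. Urea ChIP-seq for SATB1, with the home-made antibody 1583D, was available from thymocytes (age 13 days, 2 lists, with 4 and 2 ul of antibody), brain (labelled 5 and 6 weeks, 10 and 12 cycles) and skin (13 days, 2 lists, sonicated for 55 and 60 s). Standard ChIP-seq for SATB1 in thymocytes had 2 lists that differ in antibody, ab109122 for the first and 1583D for the second, and in sonication time (15 and 150 s). Both carry the age label of 13 days, although the first one's title says 6 weeks. Urea ChIP-seq for CTCF had 1 list from thymocytes (labelled 13 days, titled 6 weeks) and 1 from skin (13 days). The BUR reference map is a single list of DNA fragments bound in vitro by recombinant SATB1. Thymus and skin are mixtures of cells, brain chromatin came from cortex according to the extraction protocol, and peak lists hold no expression values with which to check cell identity. The study's methods give other ages for some tissues than the labels do. A peak that is absent from a tissue may be absent from its cells or occur in too few of them, and these cannot be told apart. The study states that its replicates are biological, from separate animals, and paired lists also differ in age, antibody, antibody amount, cycles or sonication, so that their spread mixes these sources.

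Interleukins are secreted messengers of immune cells. They act through receptor chains that are often shared between ligands, such as the common gamma chain, gp130 (Il6st) and the IL-1 receptor accessory protein (Il1rap), and signal through JAK kinases and STAT factors or through MYD88 and IRAK kinases. Base-unpairing regions (BURs) are AT-rich stretches in which 1 strand carries only A, T and C over some length, and they unwind easily. SATB1 is abundant in thymocytes, where it is required for T cell development, and it binds BURs in vitro.

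The strongest urea peaks held more A and T than the standard sequence printed with them. Fold enrichment here is the peak caller's ratio of reads at the summit to local background in the same library, and it is not scaled between libraries. The 200 bases centred on the summit are printed for the 6 interleukin genes with the strongest thymocyte urea SATB1 peak on a BUR, on the plus strand of mm9 (NCBIM37). Capitals mark the longest stretch that lacks C, or that lacks G. The last 2 sequences are given for contrast, the part of a standard SATB1 peak just before the first exon of Il1rap and the BUR with the highest in vitro fold enrichment among those in interleukin windows with no SATB1 peak.
Il18rap, intron, chr1:40575669-40575868: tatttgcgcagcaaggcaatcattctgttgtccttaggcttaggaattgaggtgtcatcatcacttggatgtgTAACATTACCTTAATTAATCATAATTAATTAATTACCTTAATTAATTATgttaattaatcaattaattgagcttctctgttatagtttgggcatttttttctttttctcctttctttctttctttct
Il1a, upstream, chr2:129151972-129152171: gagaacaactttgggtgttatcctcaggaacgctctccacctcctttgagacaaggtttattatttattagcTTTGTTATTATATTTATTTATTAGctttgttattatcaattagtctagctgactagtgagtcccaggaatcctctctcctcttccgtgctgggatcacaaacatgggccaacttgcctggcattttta
Il6ra, upstream, chr3:89724978-89725177: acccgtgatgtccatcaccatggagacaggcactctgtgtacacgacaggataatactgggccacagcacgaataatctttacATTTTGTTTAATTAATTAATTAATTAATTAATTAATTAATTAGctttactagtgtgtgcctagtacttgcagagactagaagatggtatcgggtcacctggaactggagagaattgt
Il1rapl1, intron, chrX:84791621-84791820: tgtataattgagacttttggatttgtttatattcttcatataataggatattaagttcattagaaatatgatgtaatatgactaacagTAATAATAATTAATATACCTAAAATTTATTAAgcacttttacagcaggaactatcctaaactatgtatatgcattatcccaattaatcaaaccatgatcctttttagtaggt
Il1rapl2, intron, chrX:134165912-134166111: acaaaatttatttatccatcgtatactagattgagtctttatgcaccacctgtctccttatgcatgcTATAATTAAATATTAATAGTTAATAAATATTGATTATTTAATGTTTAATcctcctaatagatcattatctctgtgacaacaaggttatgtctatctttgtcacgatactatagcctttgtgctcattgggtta
Il10, upstream, chr1:132914280-132914479: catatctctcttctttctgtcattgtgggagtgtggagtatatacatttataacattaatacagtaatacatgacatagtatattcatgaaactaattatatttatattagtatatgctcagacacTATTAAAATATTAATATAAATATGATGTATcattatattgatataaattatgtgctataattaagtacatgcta
Il1rap, standard peak before the gene start, chr16:26581590-26581789: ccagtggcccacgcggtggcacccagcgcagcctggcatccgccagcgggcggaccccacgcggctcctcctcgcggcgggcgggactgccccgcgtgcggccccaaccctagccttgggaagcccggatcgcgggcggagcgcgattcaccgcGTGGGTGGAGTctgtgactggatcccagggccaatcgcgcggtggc
Il28ra, BUR without a SATB1 peak, chr4:135250824-135251023: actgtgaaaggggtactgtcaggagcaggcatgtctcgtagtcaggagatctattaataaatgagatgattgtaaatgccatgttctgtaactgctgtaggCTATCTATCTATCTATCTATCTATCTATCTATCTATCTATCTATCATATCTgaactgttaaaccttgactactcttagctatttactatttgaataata

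Between 60.5 and 77.0% of the bases in the 6 urea sequences were A or T, against 24.5% in the Il1rap start sequence. Il1a (60.5%), Il6ra (61.5%), Il18rap and Il1rapl2 (70.5% each) lay below the 72.5% median of all shared thymocyte urea peaks on a BUR. Il1rapl1 (75.5%) and Il10 (77.0%) lay above it. The Il18rap and Il6ra sequences carried runs of TAATTA, a hexamer that is its own reverse complement, with 7 copies in Il18rap and 8 in Il6ra, overlaps included. Il10 had 2 copies, Il1rapl1 and Il1rapl2 1 each and Il1a 0. The Il28ra BUR, at 20.5-fold in vitro, held a CTAT repeat and 0 copies of TAATTA. The same letters were counted over all members. Around the summits of the 69 shared thymocyte urea peaks on a BUR, 49.3% of the 200-base windows held TAATTA and the median AT content was 72.5%. Off BURs, 45.5% of 22 shared urea peaks held it, at a median AT content of 64.5%. Among the 108 shared standard peaks off BURs it was 0.926%, at 47.0% AT. In the whole genome the corresponding shares were 53.9, 41.5 and 1.82%, and 7.21% of all 200-base tiles held the hexamer. Of the BURs in interleukin windows, 28.3% of the 357 without a urea peak in any list held it, against 52.9% of the 68 bound in both thymocyte lists. Over all BURs of the genome these shares were close, at 25.1 and 53.3%. The median in vitro enrichment in interleukin windows was 5.10 in the first set and 7.20 in the second. The longest stretch without C or without G in the 200 bases was shorter in the second set. Its median was 42 bases in the first and 31 in the second, and 41 and 34 over the genome. Median AT content in interleukin windows was 74% in both sets. The hexamer was chosen after these sequences were seen, and a match describes letters and is not a binding site.

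Most BURs in interleukin windows lay in a pair of genes. The map had 626 BURs in the windows, with 69 of the 80 genes holding at least 1. Il1rapl1 and Il1rapl2, receptors of the IL-1 receptor family that organize synapses in the brain and extend over 1375 and 1276 kb of chromosome X (chrX:83986209-85360984 and chrX:134105147-135381485), held 371 of them (59.3%) on 36.6% of the window bases. The density was 136 BURs per Mb in these windows, 53.9 per Mb in the windows of the other 78 genes and 72.7 per Mb in the windows of all protein-coding genes.

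The urea SATB1 peaks followed the same division. In thymocytes 130 and 114 peaks lay in interleukin windows, of which 85 and 78 were in Il1rapl1 and Il1rapl2. In brain the windows held 329 and 286 peaks, 206 and 172 of them in this pair. In skin there were 36 and 30, with 22 and 18 in the pair. The pair thus took 60.0 to 68.4% of the peaks in each of the 6 urea lists. Standard ChIP-seq gave the opposite picture, with 1 of 205 and 3 of 126 peaks in the pair, and CTCF gave 2 of 100 in thymocytes and 4 of 124 in skin.

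Relative to the windows of all protein-coding genes, the density of thymocyte urea peaks was 1.19 ± 0.00406 times as high in interleukin windows (SD, n = 2), and 0.622 times as high without Il1rapl1 and Il1rapl2. Brain went from 1.14 ± 0.0510 to 0.697, and skin from 1.15 ± 0.119 to 0.716. The BUR map went from 1.15 to 0.742. Standard SATB1 peaks went the other way, from 1.03 ± 0.0552 to 1.60, as did CTCF in thymocytes (1.11 to 1.72) and in skin (0.965 to 1.47). These ratios were not tested. For SATB1 urea peaks and BURs, the side of 1 on which the genes lie thus turns on a single pair of genes.

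**Figure D1:**
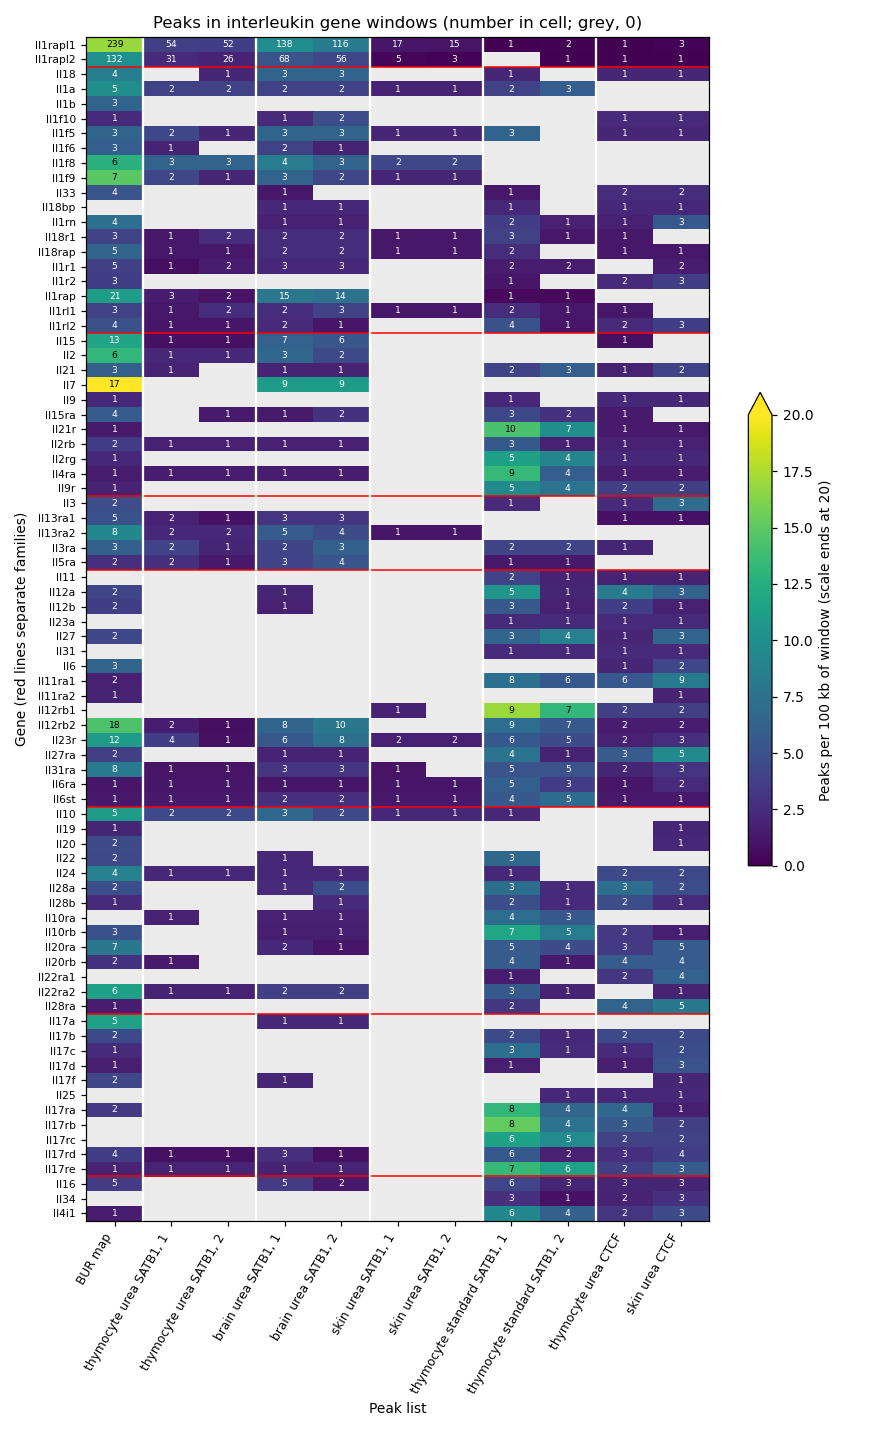
Peaks in the windows of the 80 genes (rows, grouped by family between red lines) in each of the 11 lists (columns). The number in a cell is the peak count, the colour gives peaks per 100 kb of window and grey is 0. Il1rapl1 and Il1rapl2 at the top hold most urea peaks, and receptor genes such as Il12rb1 and Il21r show standard peaks beside few or no urea peaks.

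Il1rapl1 had 239 BURs. Its window held 54 and 52 urea peaks in thymocytes, 138 and 116 in brain and 17 and 15 in skin, but 1 and 2 standard peaks and 1 and 3 CTCF peaks. Il1rapl2 had 132 BURs, 31 and 26 thymocyte, 68 and 56 brain and 5 and 3 skin urea peaks, with 0 and 1 standard peaks and 1 CTCF peak in each list. In both genes the urea SATB1 counts of the 3 tissues did not overlap between tissues in the lists as deposited, which differ in length. This separation was lost when the urea SATB1 lists were cut to the length of the shortest one. Il1rapl1 then had 16 and 15 peaks in skin, 12 and 10 in thymocytes and 9 and 10 in brain, with skin highest. Il1rapl2 had 5 and 3 in skin, 7 and 5 in thymocytes and 5 and 4 in brain. The share of all genes with such a separation is not given here. Of the 61 thymocyte urea peaks shared by both lists in these windows, 59 were intronic, 2 were upstream and 0 touched an exon, and 52 overlapped a BUR. The nearest peak of the first standard list was a median of 308 kb away. The strongest Il1rapl1 peak (chrX:84791501-84791959, in an intron 569 kb from the gene start) had 23.0- and 21.7-fold enrichment in thymocytes, 19.8 and 18.9 in brain and 14.0 and 14.3 in skin. The strongest Il1rapl2 peak (chrX:134165810-134166243, intron, 60.9 kb from the start) had 23.2 and 21.1 in thymocytes, 20.2 and 21.0 in brain and 5.24 and 5.53 in skin. Peaks were spread along both genes. When each gene was divided into 10 equal parts, each part of Il1rapl1 held between 2 and 10 thymocyte urea peaks per list, and each part of Il1rapl2 between 1 and 4. The single standard peak that both lists shared in Il1rapl1 (chrX:84483570-84483876) had 42.1- and 27.5-fold enrichment, lay outside BURs and coincided with a CTCF peak in both CTCF lists and with a skin urea peak in both skin lists.

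**Figure D2:**
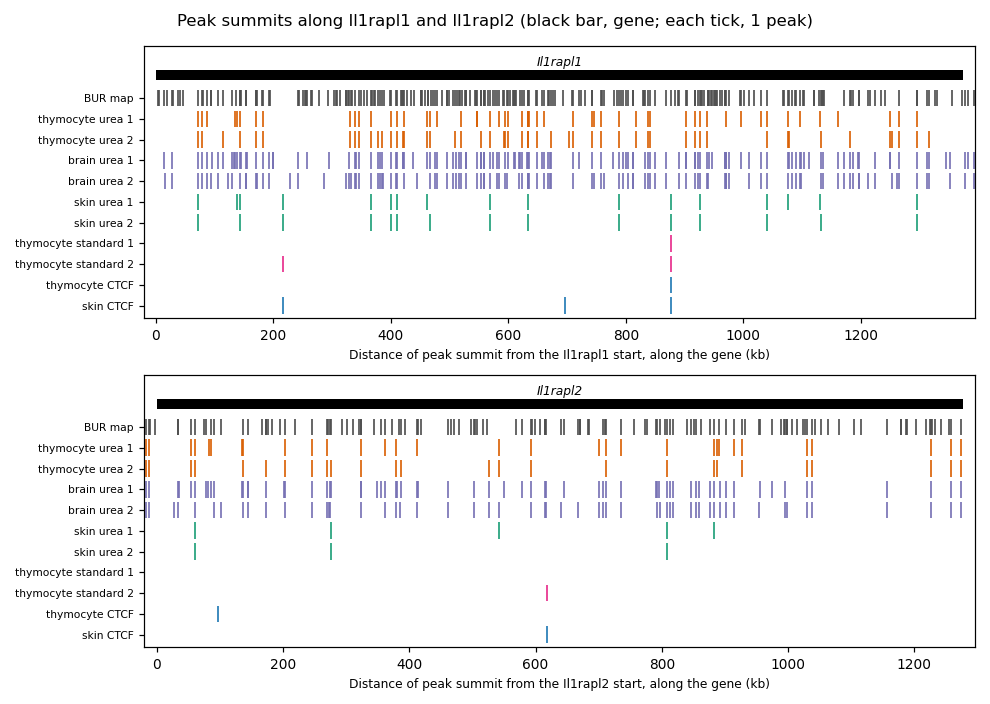
Peak summits along Il1rapl1 (top) and Il1rapl2 (bottom) in the 11 lists (rows), with the distance from the gene start in kb on the horizontal axis. Each tick is 1 peak and the black bar is the gene. BURs and urea SATB1 peaks run along the whole length of both genes, while the Il1rapl1 window holds 1 and 2 standard peaks.

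Across the 80 genes, 28 (35.0%) held a thymocyte urea SATB1 peak shared by both lists, and in 36 at least 1 list had a peak. Over all protein-coding genes the share was 39.5%, so the interleukin genes lay near the background. Window length matters to this count. In windows of up to 60 kb, 10 of 47 members (21.3%) were counted against 28.1% of all genes. In windows over 60 and up to 100 kb it was 10 of 22 (45.5%) against 40.3%, and in windows over 100 kb 8 of 11 (72.7%) against 73.5%.

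The thymocyte urea peak with the highest mean enrichment among the 91 shared ones lay in a receptor gene of the IL-1 family. This peak in Il18rap (chr1:40575479-40576006, intron, 3.56 kb from the gene start) had 29.2- and 29.1-fold enrichment, a mean of 29.2 ± 0.0978 (SD, n = 2). It also lay in the window of the neighbouring Il18r1, and both genes encode chains of the receptor for interleukin 18. The same region was called in brain (22.2- and 21.8-fold) and skin (14.3 and 18.6), and its BUR had 15.1-fold enrichment in vitro. Il6ra, the ligand-binding chain of the interleukin 6 receptor, had 22.6- and 25.5-fold enrichment 7784 bp upstream of the gene (chr3:89724868-89725311), with 19.7 and 20.2 in brain and 17.7 and 16.0 in skin. Both loci were thus called in all 6 urea lists, and neither peak overlapped a standard or CTCF peak.

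Other receptor genes had lower values. Il23r encodes a chain of the interleukin 23 receptor. The peak in an intron of Il23r (chr6:67407607-67408030) had 16.2- and 18.2-fold enrichment and lay 706 bp from the nearest BUR. In brain it had 4.25 and 5.46, and in skin 9.85 and 8.11. Il13ra2, a decoy receptor for interleukin 13, had a peak 5081 bp upstream (chrX:143868816-143869295) with 13.8 and 20.2, at 3416 bp from a BUR, and a peak in an intron on a BUR with 9.65 and 7.80. The upstream peak was also called in brain (9.20 and 8.65) and skin (16.1 and 19.2). Il1rap had an intronic peak 105 kb from its start (chr16:26686931-26687339) with 15.6 and 15.5, matched in brain (15.5 and 12.2) but absent from both skin lists. Il22ra2, a soluble decoy receptor, had 16.1 and 10.7 at a site 4641 bp downstream (chr10:19359128-19359661), and Il3ra had 9.88 and 12.1 at a site 12918 bp downstream. Both had a brain peak and no skin peak there.

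Among ligand genes, 4 of the 7 with a shared urea peak belonged to the IL-1 family, namely Il1a, Il1f8, Il1f9 and Il1f5. This family holds 9 of the 37 ligand genes, and the only shared peak of Il1f9 also counts for Il1f8. Il1a, an alarmin released by damaged epithelium, had 23.2- and 26.0-fold enrichment 16125 bp upstream (chr2:129151833-129152302), with 15.3 and 14.1 in brain and 13.8 and 14.3 in skin, while Il1b, its neighbour with a proinflammatory product, had 3 BURs and no SATB1 peak in any of the 8 lists. Il1f8 had 3 peaks in each thymocyte list within a window of 47.4 kb, the highest of them at 15.3- and 22.8-fold 2276 bp upstream (chr2:24006079-24006405), 4 and 3 peaks in brain, 2 and 2 in skin and no standard or CTCF peak. Il1f9 shared 1 of these peaks (chr2:24029470-24029978), at 11.6 and 13.0. Il1f5 had 6.86 and 19.7 at a site 6804 bp upstream (chr2:24125412-24125670), values that differ widely between the lists. Il10, an anti-inflammatory cytokine, had 18.6 and 22.7 at a site 1767 bp upstream (chr1:132914145-132914655), on a BUR with 21.5-fold enrichment in vitro, with 24.7 and 23.5 in brain and 8.38 and 8.77 in skin.

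Lower mean enrichments, from 5.52 to 9.90, were found at the strongest shared peak of 13 further genes. In descending order these were Il31ra, Il2rb, Il4ra, Il6st, Il17rd, Il15, Il17re, Il12rb2, Il1rl1, Il5ra, Il1r1, Il2 and Il1rl2. The Il2 peak (chr3:37016827-37017096, 2349 bp downstream) had 6.10- and 5.20-fold enrichment. Of the 30 shared peaks outside the windows of Il1rapl1 and Il1rapl2, 1 touched an exon of its gene, 10 were intronic, 12 upstream and 7 downstream, and 17 overlapped a BUR. None of the 80 genes had a shared urea peak within 1 kb of its start, where 1.48% of all genes did.

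Brain lists named more interleukin genes than thymocyte lists. A brain urea peak shared by both lists lay in 40 windows (50.0%, against 56.9% of all genes). By window length it was 18 of 47 (38.3%, against 45.1%) up to 60 kb, 14 of 22 (63.6%, against 61.6%) from 60 to 100 kb and 8 of 11 (72.7%, against 87.4%) above. Each of the 28 genes with a shared thymocyte peak had a peak in at least 1 brain list, as did 98.9% of all such genes. Conversely 7 genes (8.75%, against 11.4% of all genes) had a shared brain peak and none in either thymocyte list, namely Il7, Il16, Il17a, Il18bp, Il1rn, Il10rb and Il20ra. Il7, the stromal factor that developing T cells need, had the most brain peaks of these. Its window held 17 BURs, 9 and 9 brain peaks, and 0 peaks in the thymocyte, skin, standard and CTCF lists. With 11.0 brain peaks per 100 kb it ranked above Il1rapl1 (8.98), Il1rap (7.70), Il1f8 (7.39) and Il12rb2 (7.21). Its strongest brain peak (chr3:7552001-7552804, downstream of the gene and on a BUR) had 14.7- and 14.6-fold enrichment. Il1rap had 21 BURs and 15 and 14 brain peaks against 3 and 2 in thymocytes. Il12rb2 had 8 and 10 against 2 and 1, and Il15 had 7 and 6 against 1 and 1.

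These differences in number must be read against the length of the lists, since brain lists contained 117963 and 109154 peaks, thymocyte lists 45049 and 38882 and skin lists 11210 and 10846. When the brain and thymocyte lists were each cut to their 38771 strongest peaks, an alternative added after the data were seen, Il7 kept 2 and 2 brain peaks and none in thymocytes. Il1rap then had 3 and 3 in brain and 3 and 2 in thymocytes, and Il12rb2 had 1 and 3 against 2 and 1. Il15 had 0 and 1 against 1 and 1. Il1rapl1 had 51 and 37 in brain and 47 and 52 in thymocytes. Il1rapl2 had 16 and 16 in brain and 24 and 26 in thymocytes. Its counts were thus free of overlap but with thymocytes higher, the reverse of the lists as deposited. Among the other 5 genes only Il7, with 2 and 2 brain peaks against none, kept counts free of overlap at this length of 38771 peaks. The share of all genes without such overlap is not given here, so neither Il7 nor Il1rapl2 can be called unusual in this. With the urea SATB1 lists cut further, to the length of the shortest one, Il7 had 0 and 0 brain peaks.

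**Figure D3:**
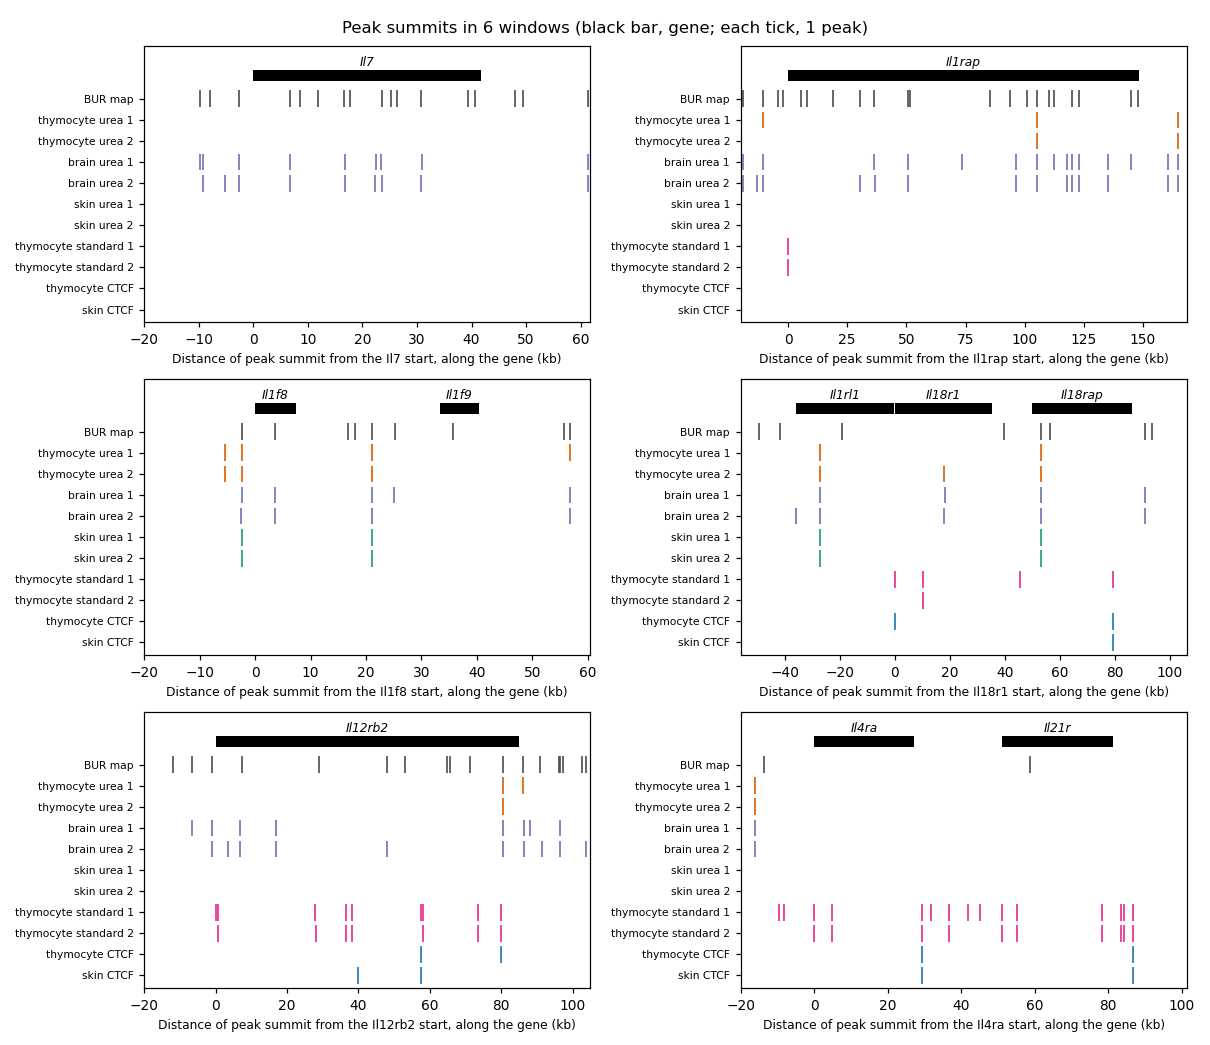
Peak summits in 6 windows, with the distance from the start of the first-named gene in kb and 1 row per list. The Il7 window holds 9 and 9 brain peaks and no other SATB1 peak, the Il1rap start carries the standard peak while urea peaks lie in the gene and its flanks, and the window of Il4ra and Il21r is filled with standard peaks.

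A skin urea peak shared by both lists lay in 14 windows (17.5%, against 18.0% of all genes), and each of these genes also had a shared thymocyte peak, against 88.9% of all genes with a shared skin peak. Il1rapl1 had 14 such peaks, Il1rapl2 3, and Il1f8 and Il23r 2 each. Il10, Il13ra2, Il18r1, Il18rap, Il1a, Il1f5, Il1f9, Il1rl1, Il6ra and Il6st had 1 each. The upstream peak of Il6st, the signal-transducing chain gp130, had 7.96- and 8.39-fold enrichment in skin and 7.11 and 10.4 in thymocytes and was absent from both brain lists. Of the 29 shared skin peaks, 25 overlapped a peak in both thymocyte lists (86.2%) and 24 in both brain lists (82.8%). The same shares over all shared skin peaks of the genome are not given here.

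In share of BURs, SATB1 peaks covered 3.83 and 3.67% of the 626 BURs in skin, 14.7 and 13.9% in thymocytes and 39.8 and 34.3% in brain. These shares lay near the means for all protein-coding windows, 4.00% in skin, 13.7% in thymocytes and 34.2% in brain. Without Il1rapl1 and Il1rapl2 the means were lower, at 2.75, 9.41 and 29.8%. The 6 lists were perfectly ordered skin, thymocytes, brain (Jonckheere-Terpstra statistic, exact permutation over 90 arrangements, one-sided p = 0.0111, the smallest they allow), and permuted within replicate number, as a replicate block, p was 0.0278. With replicate 1 or replicate 2 of each group left out, 3 lists remained in the same order and p was 0.167, the smallest that they allow. The order was chosen with these data known. It ended when all 6 lists were cut to the 10619 strongest peaks, the size of the shortest one. The shares were then 3.75% in skin, 3.91% in thymocytes and 3.12% in brain, and p was 0.944. Bound BURs were largely nested. Of the 68 bound in both thymocyte lists 66 (97.1%) were bound in both brain lists, and of the 22 bound in both skin lists 21 (95.5%) were bound in both thymocyte lists, while 133 of the 199 bound in both brain lists were not bound in both lists of another tissue. Over the genome 97.6 and 93.5% were nested in this way. No urea list had a peak on 357 of the 626 BURs (57.0%, against 59.5% of all BURs in the genome).

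**Figure D4:**
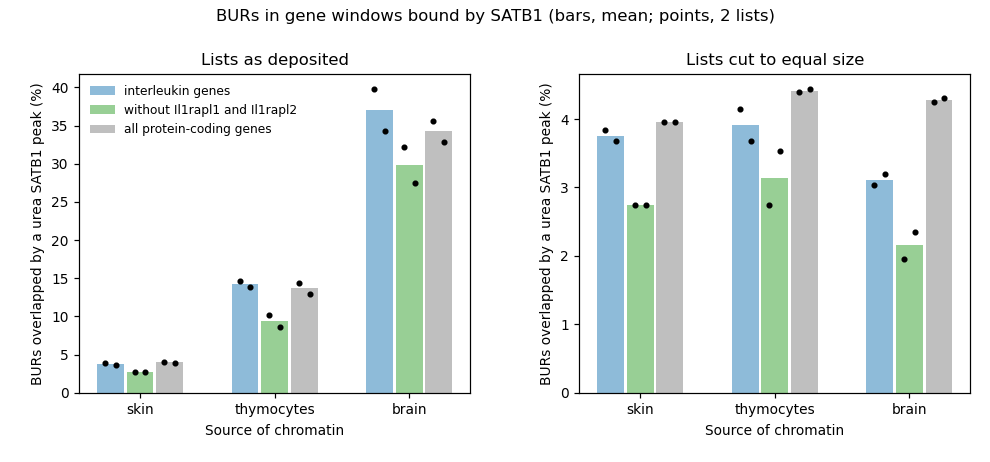
Percentage of BURs overlapped by a urea SATB1 peak in windows of interleukin genes (blue), of the same genes without Il1rapl1 and Il1rapl2 (green) and of all protein-coding genes (grey). Bars are means and points are the 2 lists, with lists as deposited on the left and cut to their 10619 strongest peaks on the right, where the rise from skin (3.75%) to brain (3.12%) is gone.

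A standard SATB1 peak shared by both lists lay in 48 windows (60.0%, against 62.0% of all genes). By window length it was 25 of 47 (53.2%, against 54.5%) up to 60 kb, 14 of 22 (63.6%, against 74.1%) from 60 to 100 kb and 9 of 11 (81.8%, against 68.7%) above. The gene sets of the 2 assays overlapped about as they did genome-wide. Of the 28 genes with a shared thymocyte urea peak, 19 (67.9%, against 59.0% of all genes with such a peak) also had a shared standard peak. A shared standard peak without a thymocyte urea peak in either list was found at 25 genes (31.2%, against 32.5% of all genes). Conversely Il1f8, Il1f9, Il2, Il13ra2 and Il15 had a shared urea peak and no standard peak in either list (6.25% of members, against 9.93% of all genes), a set named after its values were seen. Il21r, the receptor for the T cell cytokine interleukin 21, had 10 and 7 standard peaks, Il12rb1 and Il12rb2, the chains of the interleukin 12 receptor, 9 and 7 each, Il11ra1 8 and 6 and Il17re 7 and 6. Il21r, Il12rb1 and Il11ra1 had no thymocyte urea peak. In thymocytes 73.5 ± 3.92% of urea peaks and 1.37 ± 0.819% of standard peaks in interleukin windows overlapped a BUR (SD, n = 2 lists each). The difference was 72.2 percentage points. In the windows of all protein-coding genes the means were 72.6 and 3.25%. Without Il1rapl1 and Il1rapl2 they were 59.4 and 1.39%, and within this pair 80.5% of urea peaks overlapped a BUR. In interleukin windows the urea and standard values did not overlap. With 2 lists against 2, a two-sided exact permutation p cannot fall below 0.333, which is the value obtained. Of 91 shared urea peaks, 1 overlapped a peak of the first standard list and 0 of the second.

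The start of 16 members (20.0%, against 38.3% of all genes) had a shared standard peak within 1 kb. The highest mean enrichments were at Il1rap (16.3 and 7.53, chr16:26581351-26581929, touching the first exon), Il3ra (12.9 and 7.51), Il12rb2 (9.80 and 6.66), Il4i1, an amino acid oxidase (8.91 and 7.32), and Il9r (8.22 and 6.52). The first list, made with the other antibody, had the higher value at each of these 5 genes. At the other 11 the direction was mixed. The first list was higher at Il27ra, Il1rl2, Il2rg, Il17re and Il6ra. The second was higher at Il10rb, Il34, Il15ra, Il10ra, Il4ra and Il21r, by little at Il10ra and Il4ra. The part of antibody and sonication in these values was not tested. Il1rap therefore carried a standard peak at its GC-rich start and a shared thymocyte urea peak on a BUR inside the gene.

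**Figure D5:**
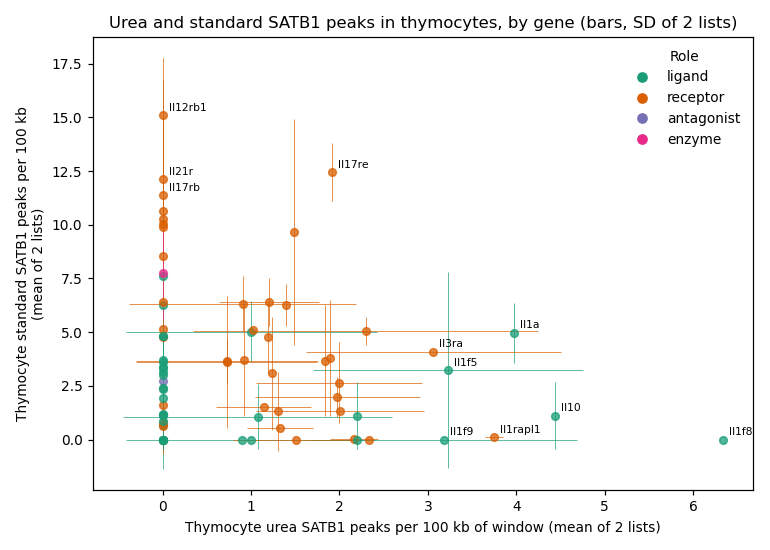
Each point is 1 of the 80 genes, with thymocyte urea SATB1 peaks per 100 kb of window on the horizontal axis and standard SATB1 peaks per 100 kb on the vertical axis (mean of 2 lists, bars SD, colours by role). Receptor genes such as Il12rb1 and Il21r lie high on the vertical axis at 0 urea peaks. Il1f8 and Il1rapl1 lie far along the horizontal axis with 0 or nearly 0 standard peaks. Il10 and Il1a lie between them on that axis, with 1.11 and 4.96 standard peaks per 100 kb.

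Receptor and ligand windows stood further apart in standard peaks per Mb than in urea peaks per Mb. Without Il1rapl1 and Il1rapl2, the windows of 38 receptor genes held 44.5 standard peaks per Mb (mean of 2 lists) and those of 37 ligand genes 19.4. For urea peaks the values were 10.2 and 6.99 per Mb in thymocytes and 26.6 and 23.9 in brain, and for BURs 51.4 and 59.7. A shared standard peak lay in 31 of 38 receptor and 14 of 37 ligand windows, against 62.0% of all genes. A shared thymocyte urea peak lay in 19 and 7 of them, against 39.5% of all genes. These counts were not matched for window length. No test was made between roles, since genes are not replicates. The receptor windows covered 2.71 Mb and the ligand windows 1.86 Mb.

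The common gamma chain family showed this division in both directions. Its 5 ligand genes (Il2, Il7, Il9, Il15, Il21) had 121 BURs and 9.05 standard peaks per Mb, and its 6 receptor genes (Il2rb, Il2rg, Il4ra, Il9r, Il15ra, Il21r) 29.3 BURs and 76.2 standard peaks per Mb. The ligand BURs were uneven, with 17 in the window of Il7, 13 in Il15, 6 in Il2, 3 in Il21 and 1 in Il9. All 6 of the receptor genes had a shared standard peak and 1 of the 5 ligand genes did, Il21. No skin peak lay in any window of this family. The receptor genes of the IL-17 family had 82.1 standard peaks per Mb and 2 of 5 had a shared thymocyte urea peak, while the 6 ligand genes had 16.2 standard peaks per Mb and no thymocyte urea peak in either list. Il17a, the main cytokine of Th17 cells, had 5 BURs and 1 peak in each brain list, and no standard peak. Of the 16 genes of the IL-6 and IL-12 family, 14 had a shared standard peak and 5 a shared thymocyte urea peak, all of them receptor chains (Il6ra, Il6st, Il23r, Il12rb2 and Il31ra). The 7 ligand genes had no thymocyte or skin urea peak, and 2 and 0 peaks in brain. In the IL-1 family without the long pair, 10 of 18 genes had a shared thymocyte urea peak and 7 a shared standard peak. In the IL-10 family 2 of 14 genes had a shared thymocyte urea peak, Il10 and Il22ra2, and 7 a shared standard peak. Over all genes the shares were 62.0% for a shared standard, 39.5% for a shared thymocyte urea and 18.0% for a shared skin peak. The family counts were not matched for window length, and a peak in overlapping windows counts for each gene there.

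The 5 genes that follow (6.25%, against 5.61% of all genes) had no SATB1 peak in any of the 8 lists, Il1b and Il6 with 3 BURs each, Il20 with 2, and Il19 and Il11ra2 with 1. Il6 is a central acute-phase cytokine, and Il19 and Il20 are close relatives in the Il10 cluster. Il11ra2 is nearly identical to Il11ra1, and only uniquely matching reads were kept, so peaks there may be missed. Il28a and Il28b are likewise close copies, with the same limit. In all, 19 genes (23.8%, against 20.1% of all genes) had BURs but no urea peak in any of the 6 lists. Those with the most BURs were Il1b, Il1r2, a decoy receptor, and Il6 with 3 each, then Il11ra1, Il17b, Il17ra, Il20, Il27 and Il3 with 2 each. Il10ra, Il18bp and Il12rb1, named after their values were seen, had no BUR and at least 1 urea peak (3.75% of members, against 3.56% of all genes).

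CTCF, a zinc finger protein that anchors chromatin loops, had a peak shared by thymocytes and skin in 52 windows (65.0%, against 57.3% of all genes). CTCF peaks overlapped BURs in 2 of 100 cases in thymocytes and 3 of 124 in skin. Of the 110 shared standard SATB1 peaks, 26 overlapped a thymocyte CTCF peak, and of the 91 shared urea peaks 1 did, in an intron of Il15. The same shares over all shared peaks of the genome are not given here, so these counts cannot be placed against a background.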

How the data were processed

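Peak lists were analysed for 11 samples, and the other 27 samples of the series were not analysed here. Per the submitters' processing notes and the study's methods, the authors checked reads with FastQC, mapped them with Bowtie2 2.3.1 to mm9, kept unique matches and called peaks sample by sample (MACS2 2.2.7, q-value limit 0.01), without pooling replicates. The control library given to the caller is not given in the sources used here, and read depth is unknown, so no depth correction was made. For each peak the authors deposited a score, a fold enrichment ratio over local background, −log10 p and −log10 q, and the offset of the summit. None of these is scaled between libraries.

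Peaks were counted where they shared at least 1 bp with a gene body or its 20 kb flanks, on chromosomes 1 to 19, X and Y. Totals were taken over merged windows. A shared peak is a peak of the first list that overlaps a peak of the second. Groups and replicate numbers follow the labels, which do not say that equal numbers mark one animal or batch. The study's supplement numbers both thymocyte urea lists the other way round. The tests that use replicate numbers take the same p either way, since the tissues do not overlap. Only single values per list were tested, by exact permutation at a threshold of 0.05, and gene lists are given as counts beside all protein-coding genes. Genes were named by rule: all with a shared thymocyte urea peak in order of mean fold enrichment (full values for the strongest 15), the 5 with most standard peaks, the 5 with most brain peaks per 100 kb and in number, all with a shared skin peak, all without a SATB1 peak, the 5 strongest standard peaks within 1 kb of a gene start, and the 5 with most BURs but no urea peak (genes tied with the fifth were added after the values were seen). The members, the gene lists and these rules were chosen with earlier results of these data known. Sequences were read from the NCBIM37 genome. Scripts ran in Python 3.11.15 with numpy 2.4.6 and matplotlib 3.10.9 and were tested on simulated data. Alternatives were other flanks, −log10 q of at least 5, summit overlap, equal list sizes, each replicate left out, a replicate block and the set without Il1rapl1 and Il1rapl2.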

Additional observations from a re-analysis of the deposited data

How the results depend on the processing

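Of 82 alternative values, 54 met the rule set for their result, 25 moved, 2 were weaker and 1 was reversed. For some results that rule was direction alone, so a value could meet it and still change in size. The share of BURs bound in brain over that in thymocytes went from 2.59 to 1.04 with these lists at equal size. The difference between urea and standard peaks on a BUR went from 72.2 to 58.1 percentage points without Il1rapl1 and Il1rapl2. The order of BUR occupancy was lost at equal list size, with brain lowest and thymocytes slightly above skin (exact permutation test, p = 0.944), and it lost its call with each replicate left out (p = 0.167 in both cases, with 1 list per tissue). With the replicate number as a replicate block, p was 0.0278. The cause was not tested. The count of genes depended on the flank by construction. Without flanks, 13 genes had a shared thymocyte urea peak (16.2%, against 20.2% of all genes), 28 a standard (35.0%, 45.5%), 21 a brain (26.2%, 30.5%), 5 a skin (6.25%, 9.41%) and 16 a CTCF peak (20.0%, 26.7%). With 50 kb flanks, 46 had a thymocyte (57.5%, 57.8%) and 25 a skin urea peak (31.2%, 28.9%). Density relative to all protein-coding windows was, without flanks, 1.40 for BURs, 1.40 for thymocyte urea, 0.658 for standard, 1.33 for brain, 1.34 for skin, 0.681 for thymocyte CTCF and 0.576 for skin CTCF. With 50 kb flanks it was 0.995 for BURs, 1.11 for thymocyte urea, 1.36 for standard and 1.02 for brain. Without Il1rapl1 and Il1rapl2 it was 0.742 for BURs, 0.622 for thymocyte urea, 1.60 for standard, 0.697 for brain, 0.716 for skin, 1.72 for thymocyte CTCF and 1.47 for skin CTCF. Equal brain and thymocyte list sizes, and shared-peak intervals taken from the second list, were chosen after seeing the data. Lists give no read depth, so a missing peak cannot be told from one below the caller's threshold.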

Other observations

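The genes that carry interleukin signals inside the cell, with several related cytokines and receptors, were counted as a list of 35 genes in windows of 2.44 Mb. A standard SATB1 peak shared by both thymocyte lists lay in 29 of them (82.9%, against 62.0% of all genes), a shared thymocyte urea peak in 13 (37.1%, against 39.5%), a shared brain peak in 20 (57.1%, against 56.9%) and a shared skin peak in 5 (14.3%, against 18.0%). A CTCF peak shared by thymocytes and skin also lay in 29 (82.9%, against 57.3% of all genes). The urea SATB1 shares lay near those of all genes, and the standard SATB1 and CTCF shares lay above them. No match by window length was made for this list. The windows held 174 and 95 standard peaks and 24 and 22 thymocyte urea peaks, beside 110 BURs. Jak1, a kinase bound to many interleukin receptors, had 18 and 6 standard peaks and 1 and 1 urea peaks. Stat5b, which acts after the common gamma chain, had 12 and 7 standard peaks, 1 BUR and no urea peak in thymocytes, brain or skin. Irak3, an inhibitor of IL-1 receptor signalling, had 3 and 3 thymocyte, 4 and 4 brain and 2 and 2 skin urea peaks and 7 and 5 standard peaks. Tab2, an adaptor of the same route, had 11 BURs, 4 and 2 thymocyte and 8 and 6 brain urea peaks and 2 and 2 standard peaks. These 4 genes were chosen after their values were seen, and the list was not tested against other genes.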
